A study of Mus musculus with 7 samples.

Results

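The genes described here are Tbx1 and 34 neighbours on mouse chromosome 16 whose human counterparts lie in the 22q11 region that is lost in DiGeorge and velocardiofacial syndromes. The 35 members were taken by symbol from a list, and all 35 were found among the 32285 genes of the count files. They were read in 7 single-cell RNA-seq libraries of EGFP-positive cells sorted from mouse embryos of mixed Swiss-Webster background with the genotype Wnt1-Cre/+;ROSA-EGFP f/+. The Wnt1-Cre driver marks neural crest cells (NCCs) together with dorsal neural tube cells, and both controls and mutants carried it. The 4 control libraries were 1 at E8.5, 1 at E9.5 and 2 at E10.5. The dissections held the anterior part of the embryo at E8.5, and the pharyngeal apparatus, heart and neural tube at E9.5. At E10.5 they held arches 2 to 6, heart and neural tube, without the first arch. The 3 libraries labelled Tbx1 null were 1 at E9.5 and 2 at E10.5, dissected like the controls of the same stage. Each library was a pool of embryos, so its cells are not replicates of a genotype. The genotype field of the null-labelled libraries reads Tbx1+/- while the study describes them as Tbx1-/-, so they are called null-labelled here.

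Tbx1 encodes a T-box transcription factor that is active in pharyngeal endoderm, mesoderm and ectoderm and is required for outgrowth of the pharyngeal arches. NCCs migrate into these arches and form mesenchyme of the face, the great arteries and the outflow tract, as well as Sox10-positive glia and sensory and autonomic neurons. The other members take part in unrelated processes, among them DNA replication, microRNA processing, nuclear transport, mitochondrial metabolism and membrane signalling, and are neighbours by position rather than by function.

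In the GRCm38 annotation the 35 members span chr16:17280351-18970309, a stretch of 1689959 bases, with Pi4ka at the low end and Hira at the high end. Tbx1 lies on the minus strand at chr16:18580979-18590671. On the plus strand lie 17 members and on the minus strand 18, and the interval holds 19 further annotated genes. Gp1bb overlaps Sept5 and Gnb1l overlaps Rtl10 on the same strand, so reads of these 2 members cannot be assigned with certainty. A further 15 members overlap a gene on the opposite strand, and the strand setting of the counting is not given in the sources used here.

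After removal of low-quality barcodes and doublets, 53539 of 65862 barcodes were kept, with medians of 14857 to 22882 UMIs (unique molecular identifiers, each counting 1 captured RNA molecule) per cell. Clusters were named by marker lists. Mesenchymal NCC-like cells numbered 182 at E8.5 and 1162 to 6292 in the other libraries, Sox10 NCC-like cells 217 to 1236 and neural-like cells 1266 to 4030. In these classes the summed level of the matching markers was 394 to 2148 CPM (UMIs per 1000000 UMIs of the class) for the mesenchymal list in mesenchymal cells against 28.5 to 70.4 CPM in neural cells, and 316 to 922 CPM for the Sox10 list in Sox10 cells against 9.51 to 28.1 CPM in neural cells. Mesenchymal cells held 5.58 to 42.0 CPM of the Sox10 list at E9.5 and E10.5 but 211 CPM at E8.5, beside 316 CPM in the E8.5 Sox10 cells, so that these classes were poorly separated at E8.5. Barcodes shared by 2 libraries made up at most 0.41% of the smaller library. The 10x kit differed between genotypes: version 3.1 was used for the E9.5 and E10.5 controls and for null-labelled E10.5 replicate 2, version 3 for the null-labelled E9.5 library and E10.5 replicate 1, and version 2 at E8.5. Genotype and kit therefore cannot be told apart at E9.5. Cells of unnamed clusters numbered 3562 at E8.5 and 508 to 1364 in the other libraries. They enter only the values over all kept cells and those of single clusters.

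Tbx1 itself was examined first, since it is the targeted gene. In mesenchymal NCC-like cells it was at 0 CPM in the E8.5 control (0 of 5919906 UMIs, which allows up to 0.507 CPM at 3 counts), 0.735 CPM in the E9.5 control, and 8.04 and 4.21 CPM in the E10.5 controls. The null-labelled libraries held 0.306 CPM at E9.5, and 8.43 and 11.3 CPM at E10.5. The mesenchymal level was thus higher at E10.5 than at E9.5 in both genotypes, and both null-labelled E10.5 libraries lay above both controls. Epithelial markers in this class were also higher at E10.5 than at E9.5, with values given below. The study describes Tbx1 as not noticeably expressed in NCCs.

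In neural-like cells the order of the genotypes at E10.5 was the opposite, while at E9.5 the null-labelled library was the lower one in both classes. Tbx1 stood at 0.540 CPM at E8.5, 0.686 CPM at E9.5, and 1.81 and 1.55 CPM at E10.5 in the controls. The null-labelled libraries held 0.136 CPM at E9.5, and 0.0725 and 0.166 CPM at E10.5, all below every control. In Sox10 NCC-like cells Tbx1 was near 0 throughout, between 0 and 0.298 CPM. The part of Tbx1 removed in the null allele is not given in the sources used here. These 3' tags may lie outside that part, so that Tbx1 counts in the null-labelled libraries check neither the labels nor the loss of the protein.

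**Figure D1:**
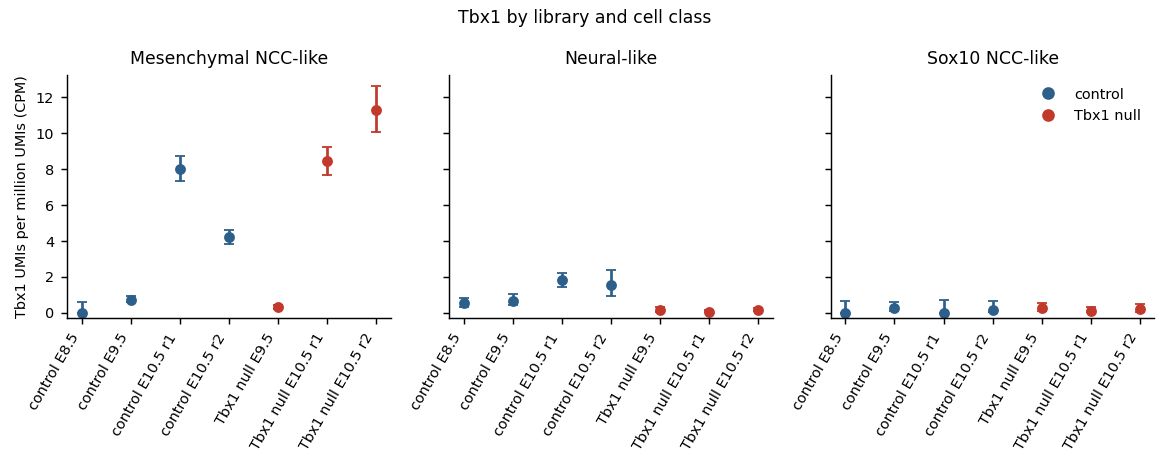
Tbx1 level in CPM (vertical axis) in each of the 7 libraries (horizontal axis) for the 3 cell classes; points are libraries and bars are 95% Poisson intervals, which cover counting error only. Mesenchymal levels reached 4.21 to 11.3 CPM at E10.5 in both genotypes, while in neural-like cells every null-labelled library lay at or below 0.166 CPM.

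The cells with at least 1 Tbx1 UMI were few. In E10.5 mesenchymal cells they made up 7.95% (213 of 2679) and 3.88% (244 of 6292) of the controls, and 7.73% (172 of 2226) and 8.78% (102 of 1162) of the null-labelled libraries. With every cell thinned to 5000 UMIs, the shares were 3.51% and 1.90% in controls against 2.68% and 3.55% in null-labelled libraries, and the genotypes overlapped on both measures. Sox10 cells of the same libraries served as the background. Their shares were 0% (0 of 217, with an exact binomial interval of 0 to 1.69%), 0.340%, 0.324% and 0.612%. Median depths were 16312 to 25356.5 UMIs in mesenchymal and 17877 to 28927 UMIs in Sox10 cells, so the mesenchymal shares stood above the background at no greater depth.

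In neural-like cells 2.62% (80 of 3058) and 1.34% (17 of 1266) of the control cells had a Tbx1 UMI, against 0.124% (5 of 4030) and 0.227% (9 of 3958) of the null-labelled cells. Thinned to 5000 UMIs, the control shares were 1.07% and 0.771% and the null-labelled shares 0.0254% and 0.130%. Neural median depths were 15239 and 9275.5 UMIs in controls, and 16417.5 and 15119 UMIs in null-labelled libraries. The 95% exact binomial interval of control replicate 1 (2.08 to 3.25%) lay above that of its own Sox10 cells (0 to 1.69%). That of control replicate 2 (0.784 to 2.14%) overlapped its Sox10 interval (0.0412 to 1.22%), so this share is not clear of background. Its neural cells were shallower than its Sox10 cells (median 17877 UMIs). Thinned to 5000 UMIs, the intervals still overlapped (0.353 to 1.46% against 0 to 0.633%). Per UMI, Tbx1 in this library stood at 1.55 CPM in neural and 0.183 CPM in Sox10 cells. The null-labelled shares lay within the range of the Sox10 point values and are read as background. At E9.5, 1.13% of control and 0.151% of null-labelled neural cells had a Tbx1 UMI, and 1.20% and 0.449% of mesenchymal cells. The Sox10 shares at E9.5 were 0.616% (95% exact binomial interval 0.248 to 1.26%) and 0.343% (0.0935 to 0.875%), and the intervals of all 4 E9.5 shares overlapped that of the Sox10 cells of the same library, so none is read as above background over a whole class. Within the E9.5 control mesenchyme, the cluster led by Meox1 and Hoxb3 stood apart, with a Tbx1 UMI in 28 of 549 cells (5.10%, interval 3.42 to 7.29%) and 37 of the library's 127 Tbx1 UMIs. The Meox1 and Hoxb3 cluster of the null-labelled library had one in 1.79% of 893 cells (interval 1.03 to 2.89%). These clusters were picked after their values were seen. Their intervals cover counting error only, and with 1 library per genotype and different kits they compare no genotypes.

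Tbx1 UMIs were unevenly spread within the mesenchymal class. Clusters led by Foxf1, a forkhead gene of visceral mesenchyme, held 301 UMIs in 461 cells of control replicate 1 and 143 UMIs in 439 cells of control replicate 2. In the null-labelled libraries the corresponding clusters held 188 UMIs in 414 cells and 211 UMIs in 293 cells. From 15% to 25.4% of the cells of these 4 clusters had a Tbx1 UMI, against 3.88% to 8.78% of the whole class. Clusters led by Bdnf and Six2 came next, at 5.93% to 15.5% of cells in the 4 libraries. These clusters were singled out after their values were seen.

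A second arrangement was a small number of cells with many UMIs. In null-labelled replicate 1, a cluster led by Cyp26a1 and Pax9 held 110 Tbx1 UMIs in 19 cells, and in control replicate 2 one such cluster held 64 UMIs in 22 cells. The mean per positive mesenchymal cell was 2.43 and 1.87 UMIs in controls against 2.87 and 2.99 in null-labelled libraries, and single cells reached 17 to 31 UMIs. Outside the named classes, an unnamed cluster of 55 cells in the null-labelled E9.5 library, led by the epithelial genes Sostdc1, Epcam, Krt8 and Krt18, held 78 of that library's 129 Tbx1 UMIs, in 30.9% of its cells. Unnamed clusters led by Acta2 at E10.5 held Tbx1 UMIs in 24.7% of 85 cells (44 UMIs) of control replicate 1, 18.2% of 192 cells (56 UMIs) of control replicate 2 and 15.4% of 52 cells (19 UMIs) of null-labelled replicate 2. In control replicate 1 an unnamed cluster of 22 cells led by Ttr had a Tbx1 UMI in 22.7% of its cells. In mesenchymal cells a list of epithelial markers summed to 3.923 CPM in the control and 3.631 CPM in the null-labelled library at E9.5. At E10.5 it summed to 22.12 and 16.45 CPM in controls, and to 21.98 and 35.78 CPM in null-labelled libraries. The E8.5 control, without a Tbx1 UMI in this class, held 11.82 CPM. The part played by epithelial cells in the mesenchymal Tbx1 values was not tested. In neural cells of the E10.5 controls, 39 of 892 cells had a Tbx1 UMI in the cluster led by Wnt3, Wnt1 and Hes5 in replicate 1, and 16 of 625 in the cluster led by Hes5 and Msx3 in replicate 2. Wnt1, Wnt3 and Msx3 are known for their expression in the dorsal neural tube.

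The other members were mostly detected in every class, and 8 of them were low throughout. At the floor of 5 CPM in at least 1 class of 1 library, 27 of the 35 members passed, and the ranges below cover the 3 classes in the 7 libraries. Levels are given for each gene by itself, because 3' UMI counts are not scaled for comparison between genes. In nuclear and RNA processes, Ranbp1, a cofactor of Ran in nuclear transport, lay at 1020 to 2044 CPM. Dgcr8, the RNA-binding partner of Drosha in microRNA processing, lay at 8.11 to 37.2 CPM. Trmt2a, a tRNA methyltransferase, held 15.5 to 31.1 CPM.

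Among regulators of chromatin and transcription, Hira, a histone chaperone, lay at 13.2 to 33.7 CPM and Med15, a Mediator subunit, at 8.44 to 29.0 CPM. Thap7, a THAP-domain protein, held 16.7 to 34.6 CPM and the nuclear protein gene Ess2 14.9 to 23.5 CPM. Cell cycle and protein turnover were represented by Cdc45, a subunit of the replicative helicase, at 23.0 to 57.1 CPM, and by Ufd1, a cofactor of the Vcp segregase, at 37.5 to 56.9 CPM. Klhl22, an adaptor of cullin ubiquitin ligases, lay at 11.2 to 30.2 CPM. Each of these genes was detected in every class of every library, with less than 5-fold between its lowest and highest value.

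The mitochondrial members were likewise detected throughout. Mrpl40, a protein of the mitochondrial ribosome, lay at 52.5 to 134 CPM, and Slc25a1, the mitochondrial citrate carrier, at 21.7 to 64.2 CPM. Txnrd2, the mitochondrial thioredoxin reductase, held 13.1 to 24.3 CPM, and Prodh, which starts proline breakdown, 6.42 to 27.0 CPM. Mrpl40 and Prodh were both highest at E8.5 in all 3 classes.

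Members with roles in signalling and membranes followed. Crkl, an SH2 and SH3 adaptor downstream of growth factor receptors, lay at 9.15 to 28.8 CPM, Lztr1, a cullin adaptor for RAS proteins, at 6.99 to 27.0 CPM, and Gnb1l, a WD40 protein, at 3.02 to 7.67 CPM. Pi4ka, a phosphatidylinositol kinase, held 4.73 to 14.5 CPM, the SNARE gene Snap29 6.93 to 16.9 CPM, and the palmitoyltransferase gene Zdhhc8 3.36 to 18.1 CPM. Arvcf, a catenin of the p120 family that binds cadherins, ranged from 4.23 to 47.8 CPM, and Tango2 from 5.92 to 21.7 CPM. The transmembrane protein gene Dgcr2 lay at 20.6 to 49.6 CPM and Dgcr6 at 83.3 to 143 CPM. Scarf2, a scavenger receptor family gene, covered the widest relative range of this group, 0.420 to 30.2 CPM.

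The 8 members that never reached 5 CPM were of mixed function. Cldn5, a tight junction protein of endothelium, reached 2.51 CPM and Rtn4r, the Nogo receptor of neurons, 2.88 CPM. Slc7a4, a solute carrier, reached 1.47 CPM, Car15, a carbonic anhydrase, 1.06 CPM, and Aifm3, a mitochondrial flavoprotein, 1.03 CPM. Gp1bb, part of the platelet von Willebrand factor receptor, reached 0.590 CPM, P2rx6, an ATP-gated channel, 0.537 CPM, and Serpind1, heparin cofactor II of plasma, 0.0370 CPM. Gsc2, a homeobox gene, was low in every class but one, in which it stood at 8.31 CPM.

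Mesenchymal and neural cells differed most in Scarf2. Its mesenchymal level was 3.21 CPM at E8.5, 7.57 and 8.13 CPM at E9.5 (control and null-labelled), 23.4 and 14.9 CPM in the E10.5 controls, and 25.1 and 30.2 CPM in the null-labelled E10.5 libraries. In neural cells it was 0.420, 0.477, 0.477, 0.597, 1.11, 1.10 and 1.22 CPM in the same order, and Sox10 cells lay in between at 1.23 to 7.73 CPM. The mesenchymal value exceeded the neural one in 7 of 7 libraries, with a mean difference of 3.0 ± 0.85 (SD, n = 7) in log2(CPM + 1). These within-library class differences are descriptions, since the clusters were drawn from the same cells, and they carry no test.

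**Figure D2:**
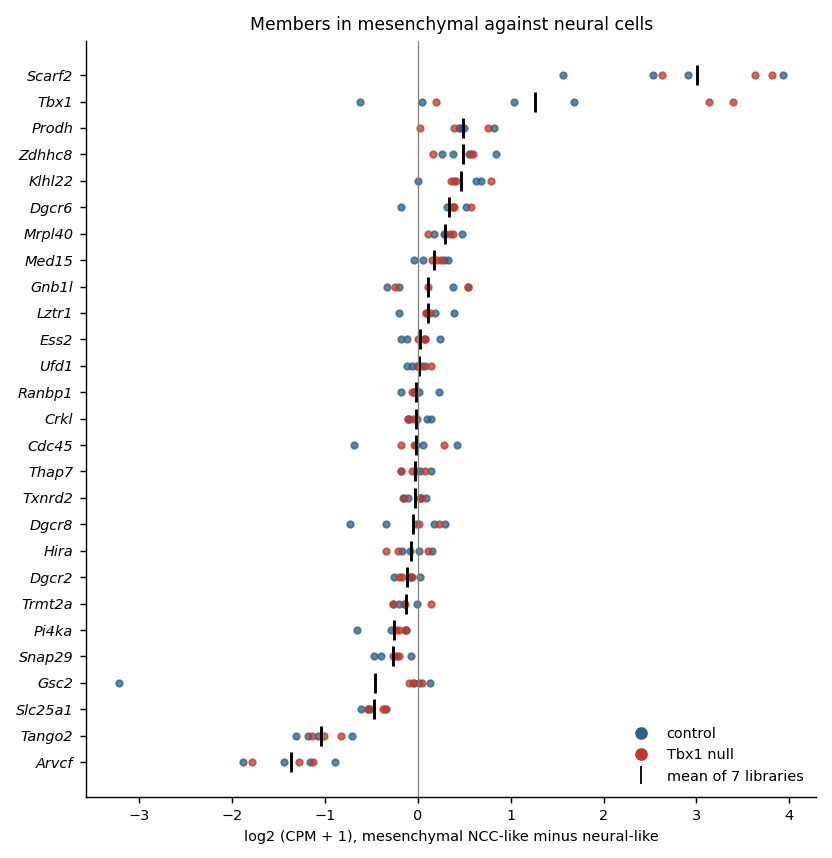
Difference between mesenchymal NCC-like and neural-like cells in log2(CPM + 1) (horizontal axis) for the 27 members that passed 5 CPM (vertical axis), with 1 point per library and the mean of the 7 libraries as a black bar. Scarf2 lies to the right in all 7 libraries (mean 3.0), and Arvcf (mean -1.37) and Tango2 (mean -1.04) to the left in all 7.

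Of the 27 members above the floor, 5 were higher in mesenchymal cells in all 7 libraries (Scarf2, Prodh, Zdhhc8, Klhl22 and Mrpl40) and 5 were lower in all 7 (Arvcf, Tango2, Slc25a1, Snap29 and Pi4ka). These shares, 18.5% each, stood beside 15.4% and 24.8% of the 11179 genes that passed the same floor. The median difference of the 27 was -0.018, beside -0.029 over those genes. Tbx1 had a mean difference of 1.27 ± 1.55, with a higher mesenchymal value in every library except the E8.5 control.

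Prodh and Zdhhc8 differed less than Scarf2. Prodh stood in mesenchymal cells at 27.0, 19.2, 10.3 and 9.25 CPM in the controls (E8.5, E9.5, E10.5 replicates 1 and 2) and at 17.7, 13.1 and 8.56 CPM in the null-labelled libraries (E9.5, E10.5 replicates 1 and 2). In neural cells, in the same order, it stood at 18.9, 10.4, 7.28 and 6.42 CPM, and at 10.1, 9.77 and 8.43 CPM. The mean difference was 0.48 ± 0.26, and null-labelled replicate 2 showed almost none. Prodh was higher still in Sox10 cells at E10.5, with 14.6 and 14.4 CPM in controls and 16.2 and 16.8 CPM in null-labelled libraries.

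Zdhhc8 stood in mesenchymal cells at 4.22, 6.44, 13.0 and 8.91 CPM in controls and at 8.47, 16.1 and 16.4 CPM in null-labelled libraries. The neural values were 3.36, 4.74, 6.79 and 5.76 CPM, and 7.43, 10.5 and 10.5 CPM. The mean difference was 0.48 ± 0.23, with the mesenchymal value the higher one in each library.

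Arvcf and Tango2 showed the reverse order. Arvcf stood in mesenchymal cells at 6.59, 4.23, 12.7 and 12.0 CPM in controls and at 4.48, 14.1 and 21.3 CPM in null-labelled libraries. In neural cells it stood at 13.1, 18.3, 36.2 and 28.0 CPM, and at 17.9, 35.7 and 47.8 CPM. The mean difference was -1.37 ± 0.36, and Sox10 cells, at 9.50 to 32.8 CPM, exceeded mesenchymal cells in 7 of 7 libraries.

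Tango2 stood in mesenchymal cells at 7.10, 6.28, 7.91 and 8.11 CPM in controls and at 5.92, 9.90 and 11.4 CPM in null-labelled libraries. The neural values were 12.2, 14.4, 19.2 and 21.7 CPM, and 14.3, 21.0 and 21.1 CPM, a mean difference of -1.04 ± 0.21. Its highest E10.5 clusters were led by Lhx1, a homeobox gene of spinal and hindbrain neurons, at 32.3 to 44.6 CPM. Slc25a1 differed by -0.47 ± 0.11, from 28.4, 23.5, 23.6 and 27.1 CPM in control mesenchyme against 41.1, 30.1, 34.8 and 41.8 CPM in control neural cells. In null-labelled libraries it stood at 24.3, 26.8 and 41.3 CPM in mesenchymal and at 31.4, 35.0 and 60.6 CPM in neural cells.

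Gsc2 was nearly restricted to the neural cells of the E8.5 control, with 277 UMIs (8.31 CPM). In all other libraries its neural level was 0 to 0.170 CPM and its mesenchymal level 0 to 0.156 CPM, the E8.5 mesenchymal cells holding no UMI (up to 0.507 CPM at 3 counts). An E8.5 cluster of 300 cells led by the forebrain genes Pax6, Wnt8b and Hesx1 held 144 of that library's 306 Gsc2 UMIs, in 28.0% of its cells. The E8.5 library was taken from the anterior part of the embryo, and the dissections of the later stages hold other regions, so stage and region cannot be told apart for this gene.

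Several low members were also concentrated in single clusters, which were picked out after their values were seen. Slc7a4, Aifm3 and P2rx6 were each highest in the clusters led by Rspo1 in all 6 libraries of E9.5 and E10.5, with 2.16 to 8.15 CPM, 2.21 to 4.14 CPM and 0.808 to 3.08 CPM. Rspo1 encodes an R-spondin that is made by the roof plate of the neural tube. Scarf2 reached 36.8 and 24.1 CPM in clusters of the E10.5 controls led by the muscle actin genes Acta2 or Actc1, and 51.8 CPM in such a cluster of null-labelled replicate 2.

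Across stages in mesenchymal cells, members that differed between E8.5 and the E10.5 controls did so in both directions. The largest differences above 0 in log2(CPM + 1), E10.5 minus E8.5, were 2.78 for Tbx1, 2.23 for Scarf2 and 1.81 for Dgcr8, and the largest below 0 were -1.38 for Prodh, -0.84 for Mrpl40 and -0.66 for Trmt2a. The median of the 27 members was 0.53 beside 0.45 over all genes above the floor. The E8.5 library is a single one, with another kit, dissection and sequencer, so these differences have no replicate check. Its 182 mesenchymal cells became 0 with coarser clustering (Leiden resolution 0.5), 557 with doublets kept and 1406 with cells classed one by one. The E8.5 library as a whole held 70 Tbx1 UMIs, none of them in these 182 cells. One unnamed cluster of 372 cells held 23 and another of 705 cells held 12, and 17 of 1604 neural-like cells had a Tbx1 UMI. The Tbx1 value of 0 at E8.5 thus covers the named class only.

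Within kit version 3.1, from the E9.5 control to the mean of the E10.5 controls, the median of the members was 0.31 beside 0.35 over all genes. Within kit version 3, from the null-labelled E9.5 library to E10.5 replicate 1, it was 0.50 beside 0.37. In all 3 stage differences 16 of the 27 members lay above 0, Tbx1, Scarf2 and Dgcr8 among them, and 2 lay below 0, Prodh and Ranbp1. These shares of 59.3% and 7.41% stood beside 56.9% and 12.4% of all genes above the floor, so the count above 0 was near that of genes in general. The first arch was part of the E9.5 but not of the E10.5 dissections, and the share of these differences that it accounts for was not tested.

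Dgcr8 went in mesenchyme from 8.11 CPM at E8.5 to 18.6 CPM in the control and 20.4 CPM in the null-labelled library at E9.5. At E10.5 it reached 31.6 and 30.3 CPM in controls, and 31.6 and 37.2 CPM in null-labelled libraries. The neural values were 14.1, 23.9, 27.9 and 24.5 CPM in controls and 20.7, 31.3 and 31.6 CPM in null-labelled libraries. The E8.5 value was the lowest in both classes.

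Mrpl40 went the other way, from 134 CPM at E8.5 to 94.2 CPM at E9.5 and to 77.2 and 72.4 CPM at E10.5 in control mesenchyme. The null-labelled libraries held 97.3 CPM at E9.5, and 98.6 and 56.9 CPM at E10.5, which lie on either side of the controls. In neural cells the controls held 119, 67.4, 62.8 and 59.4 CPM, and the null-labelled libraries 74.4, 77.5 and 52.5 CPM.

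Trmt2a stood at 27.9 CPM at E8.5, 18.6 CPM at E9.5, and 15.98 and 18.7 CPM at E10.5 in control mesenchyme. The null-labelled libraries held 17.4, 23.6 and 19.96 CPM. Beyond the first step from E8.5, the levels of this gene did not separate the stages.

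**Figure D3:**
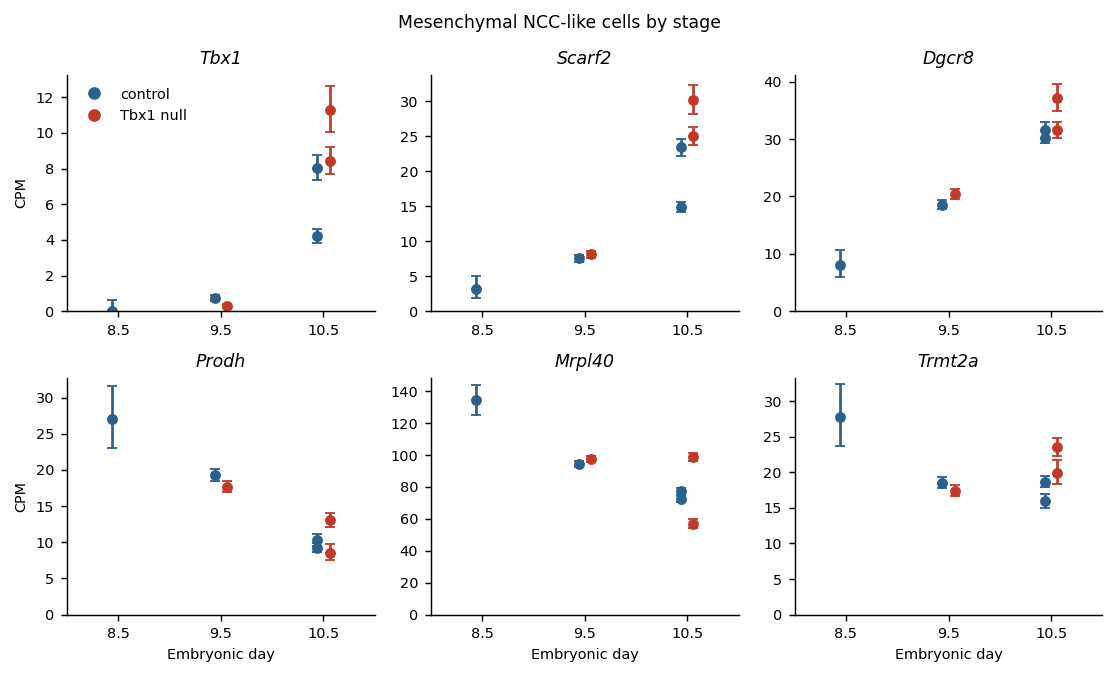
Level in mesenchymal NCC-like cells in CPM (vertical axes) by embryonic day (horizontal axes) for 6 members; points are libraries, blue for control and red for null-labelled, and bars are 95% Poisson intervals that cover counting error only. Tbx1, Scarf2 and Dgcr8 were highest at E10.5, and Prodh and Mrpl40 were highest at E8.5.

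At E10.5 the 2 control and 2 null-labelled libraries allowed a test of the genotypes, with edgeR's quasi-likelihood test on the summed counts of each class and Benjamini-Hochberg adjustment over all genes tested. No member passed an adjusted p of 0.05 in any class. In mesenchymal cells 29 of the 35 members passed the filter on low counts and 0 were called, beside 0.106% of the 15042 genes tested. The count at an unadjusted p under 0.05 was 1 (Gp1bb) against a background of 12.5%, and DESeq2 called 0, beside 2.31% of all genes. The median log2 fold change of the 29 was 0.21, with 19 above 0, beside a median of -0.004 over all genes.

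In neural-like cells 33 members were tested and 0 were called, and over all 15327 genes the share called was 0%. The unadjusted count was 4 (Tbx1, Zdhhc8, Aifm3 and Slc7a4) against 4.21% of all genes, and DESeq2 called 1 member, Tbx1, beside 0.261%. In Sox10 cells 26 were tested and 0 called, beside 0.0388%. The unadjusted count there was 0 beside 10.0%, and DESeq2 called 0 beside 0.342%. Over all kept cells 34 were tested and 0 called, beside 0.0759%, the unadjusted count was 5 (Tbx1, Cldn5, Gp1bb, P2rx6 and Slc7a4) beside 11.3%, and DESeq2 called 0 beside 2.21%. The median log2 fold change of the members was 0.16 in neural, 0.15 in Sox10 and 0.17 in all kept cells, beside 0.01, 0.01 and 0.00 over all genes.

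Values of the 2 genotypes did not overlap for 18 of 29 members in mesenchymal cells, beside 46.1% of all genes. In neural cells this held for 16 of 33 beside 36.5%, in Sox10 cells for 12 of 26 beside 42.3%, and in all kept cells for 26 of 34 beside 46.6%. Marker lists of the classes and of other cell types also stood apart between genotypes at E10.5, for 5 of 11 lists in mesenchymal, 4 in neural, 3 in Sox10 and 7 in all kept cells. In mesenchymal cells the mesenchymal list summed to 1314 and 1363 CPM in controls against 2098 and 2148 CPM in null-labelled libraries, the Sox10 list to 5.58 to 5.78 CPM against 8.86 to 16.5 CPM, and the neural progenitor list to 5.15 to 7.03 CPM against 12.1 to 39.4 CPM. In neural cells the mesenchymal list summed to 29.7 and 32.0 CPM against 54.8 and 53.0 CPM, and the blood list reached 298 CPM in null-labelled replicate 2 beside at most 0.369 CPM in the other 3 libraries. In Sox10 cells the neuron list summed to 136 to 159 CPM against 205 to 307 CPM. Over all kept cells, the Sox10 list summed to 46.1 to 73.8 CPM against 158 to 189 CPM and the neuron list to 488 to 840 CPM against 967 to 2155 CPM. The part of these markers in the members' values was not tested.

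Tbx1 was the member with the largest difference in neural cells, at a log2 fold change of -3.90 (SE 0.59, null-labelled minus control), with an unadjusted p of 0.000535 and an adjusted p of 0.905 by edgeR. The UMIs behind it were 88 and 21 in controls against 5 and 11 in null-labelled libraries. DESeq2 gave -3.94 with an adjusted p of 0.00056. Without null-labelled replicate 2 the edgeR log2 fold change was -4.57, and within kit version 3.1, that is without null-labelled replicate 1, it was -3.42. With a replicate block in edgeR it was -3.95, with an adjusted p of 0.0163. That fit called 82 of 15327 genes, against 0 without the block. In mesenchymal cells Tbx1 differed by 0.55 (SE 0.33, adjusted p = 0.527 by edgeR), from 517 and 456 UMIs in controls and 493 and 305 in null-labelled libraries.

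The genotype difference of Tbx1 itself differed between these classes by 4.54 on the log2 scale (SE 0.43, mesenchymal minus neural). In the edgeR interaction test, with each library as a block, the unadjusted p was 0.000103 and the adjusted p 0.21. No member was called in that test, beside 0.00612% of 16341 genes, and at an unadjusted p under 0.05 there were 2, Tbx1 and Aifm3, beside 5.05%. Without the filter on low counts Tbx1 was called, and 16 of 23473 genes were called in all, against 1 of 16341 with the filter. The call of Tbx1 also depended on which library was left out. Aifm3 differed by -3.67 (SE 1.02, adjusted p = 0.771).

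**Figure D4:**
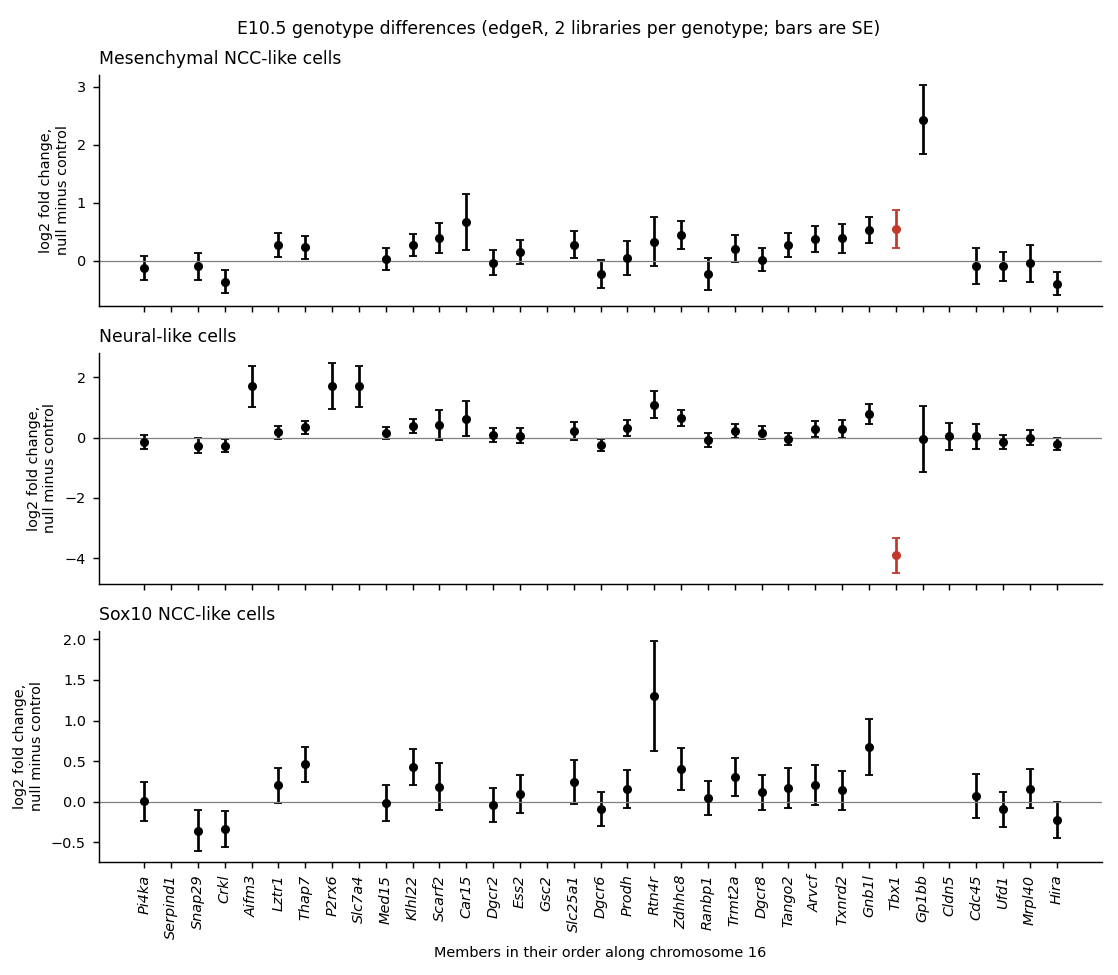
Log2 fold change at E10.5, null-labelled minus control (vertical axes), for the members tested in each of the 3 cell classes, placed in their order along chromosome 16 (horizontal axis); bars are SE derived from the edgeR fold change and F statistic, with 2 libraries per genotype. Tbx1, in red, lies at 0.55 in mesenchymal and -3.90 in neural-like cells, and no member passed an adjusted p of 0.05.

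The other members at an unadjusted p under 0.05 in a class were Gp1bb, Aifm3, Slc7a4 and Zdhhc8. Gp1bb in mesenchymal cells went from 5 and 6 UMIs in controls to 19 and 13 in null-labelled libraries, a log2 fold change of 2.44 (SE 0.60, adjusted p = 0.236). Aifm3 and Slc7a4 each had a log2 fold change of 1.69 in neural cells. The Rspo1-led cluster of null-labelled replicate 1, of 501 cells, met the criteria of the neural-like class, while the corresponding clusters of the other 3 E10.5 libraries remained unnamed, and it held 45 of the 71 Aifm3 UMIs and 69 of the 101 Slc7a4 UMIs of that class. With these clusters left out in every library, an alternative added after the data were seen, the values were 0.99 and 0.86. With doublets kept they were 0.16 and -0.39, and with finer clustering (Leiden resolution 2.0) 0.22 and -0.16. Zdhhc8 in neural cells stood at 6.79 and 5.76 CPM in controls against 10.5 and 10.5 CPM in null-labelled libraries, a log2 fold change of 0.64 (SE 0.26, adjusted p = 0.905), and in mesenchymal cells at 0.44 (SE 0.25, adjusted p = 0.505).

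Among tested members above the floor of 5 CPM other than Tbx1, the mesenchymal log2 fold changes were at most 0.53 in size. Gnb1l lay at 4.59 and 4.95 CPM in controls against 7.36 and 7.67 CPM in null-labelled libraries (log2 fold change 0.53, SE 0.23, adjusted p = 0.405). Hira lay at 28.6 and 29.8 CPM against 24.4 and 24.2 CPM (-0.39, SE 0.20, adjusted p = 0.464), and Crkl at 25.5 and 28.8 CPM against 21.3 and 25.1 CPM (-0.36, SE 0.20, adjusted p = 0.492). The genotypes did not overlap in these 3 genes, and none passed the test.

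At E9.5 there was 1 library per genotype and no test. The median difference of the members in mesenchymal cells was 0.07 in log2(CPM + 1) beside 0.05 over all genes. No member differed by more than 1, beside 0.456% of all genes. Members below 1 CPM in both libraries, Tbx1 among them, could not differ by more than 1 on this scale. For the direction, the median over the tested genes was first subtracted from the E9.5 differences (0.041 in mesenchymal and 0.054 in Sox10 cells). The direction at E9.5 was then the same as at E10.5 for 13 of 29 members in mesenchymal cells beside 52.2% of all genes, for 16 of 33 in neural cells beside 52.6%, and for 10 of 26 in Sox10 cells beside 49.4%.

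Genes that share the interval or a process with a member were read from fixed lists. Of the 19 other genes of the interval, 10 were tested in mesenchymal, 11 in neural, 7 in Sox10 and 12 in all kept cells at E10.5, and edgeR called 0 in each class. At an unadjusted p under 0.05 there was 1 in Sox10 cells and 0 in the others, and DESeq2 called 0. Over these and 9 lists of process partners, 67 genes in all, 55 to 60 were tested per class and edgeR and DESeq2 each called 0, while 5 in mesenchymal, 0 in neural, 5 in Sox10 and 2 in all kept cells had an unadjusted p under 0.05, beside the 12.5%, 4.21%, 10.0% and 11.3% of all genes. The correlations of members with lists of process partners over the 21 class sums of the libraries are given as a description, since the sums share libraries, depth and class. Crkl and Lztr1 were read against the same list, and Slc25a1 and Prodh against another shared list. Those lists are therefore not particular to either member. Cdc45 had a median Pearson's r of 0.578 with 12 genes of the replicative helicase and its loading (11 above 0), beside -0.098 with all genes. Dgcr8 had 0.797 with 5 microRNA processing genes beside 0.437, and Hira 0.724 with its 6 complex partners and histone genes beside 0.403. Crkl had 0.741 beside 0.443, Lztr1 0.684 beside 0.455, Slc25a1 0.491 beside 0.275, Txnrd2 0.334 beside 0.171 and Ufd1 0.248 beside 0.164. Ranbp1 had -0.499 with 6 genes of the Ran cycle beside -0.402, and Prodh -0.411 beside -0.373, so that these medians did not stand far from the background. The single Ran cycle genes were spread widely, from -0.854 to 0.843.

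Within the interval, 5 pairs of members start head to head within 1000 bases, on opposite strands, by the closest of their listed RefSeq starts. In the annotation used above for positions, Pi4ka and Snap29, Ranbp1 and Trmt2a, and Cdc45 and Ufd1 overlap at these ends. The stretches between the RefSeq starts are shown because the pairs differ in how closely both genes vary together. They are taken from RefSeq in GRCm38.p6, read 5′ to 3′ on the plus strand, with capitals at every CCAAT and every GGGCGG found on either strand (ATTGG and CCGCCC when read on this strand). The window of the Cdc45/Ufd1 pair is not printed, since the table held only part of it.
Pi4ka/Snap29, chr16:17405866-17405999: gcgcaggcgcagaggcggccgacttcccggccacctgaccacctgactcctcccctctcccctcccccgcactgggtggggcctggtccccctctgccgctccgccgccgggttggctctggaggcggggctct
Ranbp1/Trmt2a, chr16:18248695-18248882: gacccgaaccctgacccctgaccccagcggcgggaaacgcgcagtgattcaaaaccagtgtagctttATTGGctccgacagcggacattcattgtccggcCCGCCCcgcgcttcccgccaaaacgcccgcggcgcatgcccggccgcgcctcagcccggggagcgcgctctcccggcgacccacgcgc
Tango2/Arvcf, chr16:18348099-18348181: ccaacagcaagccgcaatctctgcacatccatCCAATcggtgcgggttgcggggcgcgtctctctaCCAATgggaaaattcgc
Mrpl40/Hira, chr16:18876638-18876749: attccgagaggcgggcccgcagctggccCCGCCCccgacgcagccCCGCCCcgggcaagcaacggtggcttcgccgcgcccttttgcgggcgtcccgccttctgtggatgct

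The Tango2/Arvcf stretch held 2 CCAAT, at -51 and -17 from the Arvcf start, and no GGGCGG, while the Mrpl40/Hira stretch held 2 GGGCGG and no CCAAT. The Ranbp1/Trmt2a stretch held 1 of each and the Pi4ka/Snap29 stretch neither. Of 43 promoter windows of 34 members, from 250 bases before to 50 after the start, 44.2% held CCAAT beside 37.4% of all 32817 promoters. GGGCGG was held by 72.1% beside 35.6%, and CACGTG by 6.98% beside 7.15%. TTTCGCGC was in 0 of the 43 beside 0.323%, and TTTGGCGC in 0 beside 0.515%. A match or its lack describes these letters only.

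Tango2 and Arvcf, whose starts are 84 bases apart, had the highest correlation of the 5 pairs, with Pearson's r = 0.899 and Spearman's rho = 0.871 over the 21 sums. At E10.5 alone Pearson's r was 0.898 (n = 12) and in mesenchymal cells alone 0.954 (n = 7). Pi4ka and Snap29, 135 bases apart, had 0.827 and 0.869 over all sums, but 0.486 at E10.5. Cdc45 and Ufd1, 322 bases apart, had 0.645 and 0.614, and 0.854 at E10.5. Ranbp1 and Trmt2a, 189 bases apart, had 0.516 and 0.303.

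Mrpl40 and Hira, 113 bases apart, went in opposite directions, with -0.815 and -0.729 over the 21 sums, -0.521 at E10.5 and -0.740 in mesenchymal cells. Hira stood in mesenchyme at 14.7, 20.4, 28.6 and 29.8 CPM in controls and at 23.7, 24.4 and 24.2 CPM in null-labelled libraries, beside the Mrpl40 values given above. For comparison, the 325 pairs among the 26 members with at least 1000 UMIs had a median Pearson's r of 0.249, with the middle of the pairs between -0.152 and 0.496. The points of these correlations share libraries, stages and depth, and no test was made.

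The mesenchymal levels of the other paired genes were as follows. Pi4ka stood at 4.73, 5.60, 11.9 and 11.2 CPM in controls and at 7.40, 10.8 and 12.5 CPM in null-labelled libraries. Snap29 stood at 6.93, 8.11, 9.08 and 11.9 CPM, and at 7.22, 10.6 and 10.9 CPM. Both were lower at E8.5 and E9.5 than at E10.5 in the controls, and lower at E9.5 than at E10.5 in the null-labelled libraries. Cdc45 stood at 23.0, 47.9, 46.2 and 33.2 CPM in controls and at 50.3, 48.3 and 32.0 CPM in null-labelled libraries. Ufd1 stood at 38.2, 47.9, 51.3 and 46.6 CPM, and at 51.2, 56.9 and 42.3 CPM. In both genes replicate 2 of either genotype lay below replicate 1 at E10.5. Ranbp1 stood at 1803, 1466, 1242 and 1358 CPM in controls and at 1501, 1368 and 1033 CPM in null-labelled libraries, and was highest at E8.5, as was Trmt2a.

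**Figure D5:**
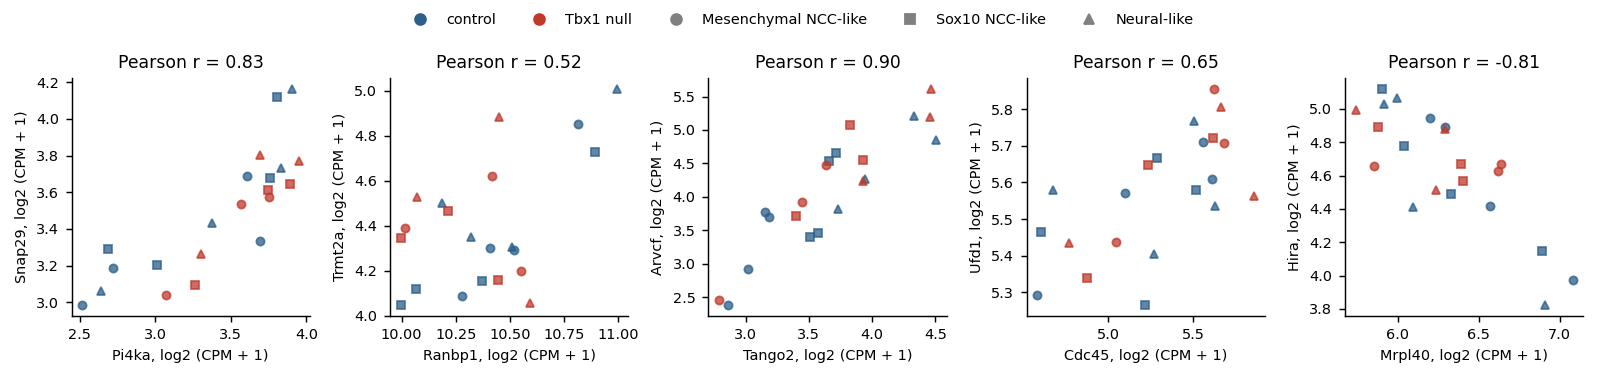
Levels of both genes of each head-to-head pair in log2(CPM + 1) (horizontal axis for the gene on the minus strand, vertical axis for the gene on the plus strand) in 21 sums of 3 cell classes and 7 libraries, blue for control and red for null-labelled, with the class shown by the symbol. The points of Tango2 and Arvcf lie along a rising line (Pearson's r = 0.899), and those of Mrpl40 and Hira along a falling one (-0.815).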

How the data were processed

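The deposited files hold raw UMI counts per gene and cell barcode, which the authors made with Cell Ranger 6.0.1 and its mm10 reference (per the submitters' notes) from 10x 3' libraries. Total depth was 140264662 to 234844769 UMIs per library. Barcodes below 1000 detected genes, or above 10% of UMIs from mitochondrial genes, were dropped, as were doublets found by Scrublet at an assumed rate of 0.8% per 1000 barcodes. Each library was clustered separately (scanpy 1.11.5: 2000 variable genes, 30 components, 20 neighbours, Leiden resolution 1.0). Clusters were named from fixed marker lists with thresholds (score 0.4, margin 0.1, at least 3 markers at 10 CPM) set after the leading genes of clusters had been seen. The cell types are rebuilt and may differ from the study's.

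Counts were summed per library and class, printed as CPM, and tested at E10.5 with edgeR 4.0.16 (TMM, filterByExpr, quasi-likelihood, 2 against 2 libraries) in R 4.3.3. DESeq2 1.42.0 was an alternative, along with DESeq2 size factors, no low-count filter, other cell filters, clusterings and class definitions, and leaving out each library. Scripts were tested on simulated data. Intervals are 95% and cover counting error only. Each SE of a fold change was derived as its size divided by the square root of the quasi-likelihood F statistic. P-values set the genotype difference against the spread between these pools, as estimated with information shared over all genes. The members and lists were chosen with earlier results of these data known. Every member is named, with values in each library for Tbx1, the head-to-head pairs, and the members that differed most between classes or stages. Other clusters and genes singled out were chosen after their values were seen. Values in single clusters are given for 7 members.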

Additional observations from a re-analysis of the deposited data

How the results depend on the processing

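In neural-like cells at E10.5 the count of members called moved from 0 to 1 with the DESeq2 Wald test and with a replicate block in edgeR. In each case the member was Tbx1, and over all 15327 genes the calls were 40 and 82, against 0 in the main fit. This count also depended on which library was left out, with Tbx1 log2 fold changes of -4.57 to -3.42. The count called for a difference between mesenchymal and neural cells moved from 0 to 1, again Tbx1, with no filter on low counts. That fit called 16 of 23473 genes, against 1 of 16341 in the main fit, and this count, too, depended on which library was left out. In fits with a library left out, the lone library of a genotype is assumed to vary like the others. The cause was not tested. In the edgeR fits with every library kept, no block and no added threshold, the adjusted p of Tbx1 in neural cells lay between 0.633 and 0.977. The replicate numbers mark no shared batch in the labels, and deviations of same-numbered libraries correlated at 0.219 in mesenchymal, 0.431 in neural and 0.204 in Sox10 cells over only 2 pairs. With the block, Tbx1 in neural cells had a log2 fold change of -3.95 (adjusted p = 0.0163), and no other count of members moved. The other counts of members called and the named class ratios (Scarf2, Tbx1, Prodh, Zdhhc8, Arvcf, Tango2 and Slc25a1) kept their direction and, where tested, their side of the threshold. The correlations of the head-to-head pairs were recomputed only over the E10.5 sums and the mesenchymal sums of the main processing, where they kept their direction. How they depend on clustering, cell filters and class definitions was not tested. The Gsc2 ratio of -0.46 rested on the E8.5 library and was -0.02 at Leiden resolution 0.5, where that library had no mesenchymal class. Class ratios near 0 changed sign under at least 1 alternative for Cdc45, Dgcr8, Ess2, Ranbp1, Thap7 and Ufd1 (-0.06 to 0.02 as reported), and Slc7a4 in neural cells, not called, went from 1.69 to -0.39 with doublets kept and -0.16 at Leiden resolution 2.0. Leaving out the clusters led by Rspo1 and Metrnl, chosen after seeing the data, gave Tbx1 -3.97 (adjusted p = 0.929) in neural cells. With 2 libraries per genotype, and kit partly aligned with genotype, small differences may have been missed. What size could be detected was not tested.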
